A study of Mus musculus with 2 samples.

Results

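The genes described are 38 interferon-induced genes, taken as a list of names and looked up in the tables of both libraries, and all 38 were present among the 19831 genes of each table. They fall into 8 genes of the type I core (Isg15, Ifit1, Ifit2, Ifit3, Rsad2, Oasl2, Usp18 and Cmpk2), 12 genes of the interferon-gamma group (Gbp2 to Gbp7, Iigp1, Igtp, Irgm1, Irgm2, Ifi47 and Tgtp2), 4 transcription factors (Irf1, Irf7, Irf9 and Stat2) and 14 sensors and other effectors (Ifi44, Ifih1, Ddx58, Bst2, Xaf1, Rtp4, Zbp1, Parp14, Trim30a, Herc6, Eif2ak2, Samd9l, Ifitm3 and Ifi35). The cells were endothelial cells of mouse tumours, sorted for the endothelial surface protein CD31 from adult mice of the C57BL/6 strain and profiled as single cells with 10x Genomics 3′ chemistry. There was 1 library labelled control and 1 labelled NF2 KO, the knockout of Nf2, which encodes merlin, a membrane-associated protein upstream of the Hippo pathway. Strain, age class, tumour endothelial cell type and sort were shared by both groups, and no treatment was named for either. The tumour type, the number of mice, the promoter or Cre line behind the knockout and the part of Nf2 removed are not stated in the labels. In each library the cell names carry a run number, 1 or 2. The labels do not say what a run is, so the 4 runs are described side by side as parts of 2 samples and are never treated as replicates.

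Interferons are secreted proteins that induce antiviral and immune genes in the cells they reach. Type I interferons act through the receptor chains Ifnar1 and Ifnar2 and the kinases Jak1 and Tyk2, which activate a complex containing Stat2 and Irf9 that binds the interferon-stimulated response element (ISRE). Interferon-gamma, the type II interferon made mainly by T cells and natural killer cells, acts through Ifngr1 and Ifngr2, Jak1 and Jak2 and leads to binding at the gamma-activated site (GAS), and it induces Irf1, a factor that itself acts at ISRE-like sequences. Guanylate-binding proteins (Gbp) and immunity-related GTPases (Irg) are known for their strong response to interferon-gamma, and many interferon-induced genes respond to both types. Endothelial cells carry both receptors, and interferon in a tumour can raise the chemokines and antigen-presentation genes they show to passing lymphocytes.

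The promoters of these genes show the letters through which the pathways act, and 7 are printed as examples from the type I core, the interferon-gamma group and the transcription factors, to show an ISRE core alone, a GAS core alone and both side by side. They were chosen after the matches were seen, and other members hold as many matches. The sequences are RefSeq's, on the GRCm38.p6 build, 5′ to 3′ on the strand of the gene, and each is the 130 bases just before the annotated start. Capitals mark every match, on either strand, to an ISRE core spelled GAAANNGAAA or a GAS core spelled TTCNNNGAA, and matches that overlap run together.
Isg15, chr4:156200819-156200948, minus strand: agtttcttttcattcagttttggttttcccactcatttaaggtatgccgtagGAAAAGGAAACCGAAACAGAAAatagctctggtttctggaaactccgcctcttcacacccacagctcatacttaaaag
Rsad2, chr12:26456453-26456582, minus strand: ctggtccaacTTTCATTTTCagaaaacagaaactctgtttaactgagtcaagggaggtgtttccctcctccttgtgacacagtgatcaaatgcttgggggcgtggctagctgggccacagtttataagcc
Gbp7, chr3:142530206-142530335, plus strand: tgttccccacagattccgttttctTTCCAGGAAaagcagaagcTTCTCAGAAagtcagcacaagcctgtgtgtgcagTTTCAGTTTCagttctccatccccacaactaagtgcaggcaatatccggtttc
Igtp, chr11:58199426-58199555, plus strand: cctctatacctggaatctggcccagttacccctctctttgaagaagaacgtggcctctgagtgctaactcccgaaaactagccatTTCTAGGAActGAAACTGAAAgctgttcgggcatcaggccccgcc
Irgm2, chr11:58214847-58214976, plus strand: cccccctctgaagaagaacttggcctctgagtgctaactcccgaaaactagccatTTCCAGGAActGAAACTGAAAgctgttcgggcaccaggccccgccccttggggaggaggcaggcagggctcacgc
Tgtp2, chr11:49064213-49064342, minus strand: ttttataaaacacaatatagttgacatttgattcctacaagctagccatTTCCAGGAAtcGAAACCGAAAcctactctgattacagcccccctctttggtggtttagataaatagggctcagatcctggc
Irf1, chr11:53769884-53770013, plus strand: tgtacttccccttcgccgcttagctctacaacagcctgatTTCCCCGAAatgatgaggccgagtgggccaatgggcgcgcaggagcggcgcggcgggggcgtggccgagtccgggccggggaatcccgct
The Isg15 stretch holds 3 overlapping ISRE matches, which begin −78, −72 and −66 bases from the start, and Rsad2 holds 1, at −120. In Igtp, Irgm2 and Tgtp2, all immunity-related GTPases, a GAS match stands directly before an ISRE match, at −45 and −34 in Igtp, at −75 and −64 in Irgm2 and at −81 and −70 in Tgtp2. Gbp7 has GAS matches at −106 and −87 and an ISRE match at −53. Irf1 has a GAS match at −90 and no ISRE match in the stretch shown.

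RefSeq promoter windows of 300 bases, from 250 before to 50 after a start, were matched to 31 of the 38 members. The ISRE core occurred in 55.6% of the 36 member windows and in 3.44% of all 32851 windows, and the GAS core in 30.6% and 8.30%. In the interferon-gamma group 8 of 10 windows held an ISRE core and 5 a GAS core, against 4 and 1 of 8 in the type I core. A match describes letters in the window and does not show that a factor binds there.

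After filtering, 1381 control cells (780 in run 1 and 601 in run 2) and 2733 knockout cells (1130 and 1603) were retained, with 27210086 and 52103860 UMIs, the molecules counted by unique molecular identifiers. Their median depth was 17327 UMIs for control cells and 17032 UMIs for knockout cells, and it ranged from 14286 to 21505 over the 4 runs. Run 1 of the control library stood apart before filtering, with a median of 2746 UMIs per deposited cell against 14337 to 19409 in the other runs. No pair of runs shared more than 1 cell barcode. Nf2 transcripts were counted at 21.6 counts per 1000000 UMIs (CPM) in the control (19.9 to 23.4) and 20.1 in the knockout library (18.9 to 21.4), which does not check the labels, since 3′ counting need not cover the part removed. All 14 endothelial markers were detected, summing to 8971 and 6755 CPM. Macrophage markers summed to 51.6 and 66.8 CPM, neutrophil markers to 55.0 and 69.9, and those of T or natural killer cells to 1.32 and 1.29. The libraries lay in largely different clusters of cells: clusters 2 and 7 held 629 and 197 of the control cells, and clusters 1, 3 and 6 held 883, 538 and 349 of the knockout cells. With 1 library per group no p-value was computed. Ranges after a value are exact 95% intervals that cover counting error only.

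Tumour endothelial cells of both libraries expressed the interferon response, and no member differed between them by a ratio of 1.5 or more among those with enough counts. The summed level of all 38 members was 7043 CPM in control and 7870.1 CPM in knockout cells. The 8 type I core genes together stood at 628 and 607 CPM, and the 12 genes of the interferon-gamma group at 1784 and 1926 CPM. The size rule called a gene higher or lower if its ratio of CPM, knockout over control, was at least 1.5 in that direction, its interval excluded 1 and its mean was at least 20 CPM. Of the 38 members 37 had enough counts, all but Gbp6, and 0 of 37 were higher and 0 lower, where 2.74% of all 5838 genes with enough counts were higher and 5.45% lower. Ratios ranged from 0.855 for Samd9l to 1.37 for Tgtp2. The median log2 ratio was −0.065 in the type I core, 0.050 in the interferon-gamma group, 0.015 among the transcription factors and −0.017 among the sensors and other effectors, beside −0.028 over all genes.

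These levels depended on which run stood on each side. Without run 2 of the knockout library the median log2 ratio of the interferon-gamma group was −0.40, and Gbp5 (−0.59) and Ifit2 (−0.59) met the rule as lower, while the log2 ratio of Tgtp2 turned to −0.20. Without run 2 of the control library that median was 0.32, and Tgtp2 met the rule as higher with a log2 ratio of 1.01, as it did without run 1 of the knockout library (0.72). Thinning to 2000 UMIs moved Herc6 from −0.10 to 0.52. Equal cluster weights, over only the clusters with at least 50 cells in both libraries, moved Gbp6 from 0.010 to 1.18.

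**Figure D1:**
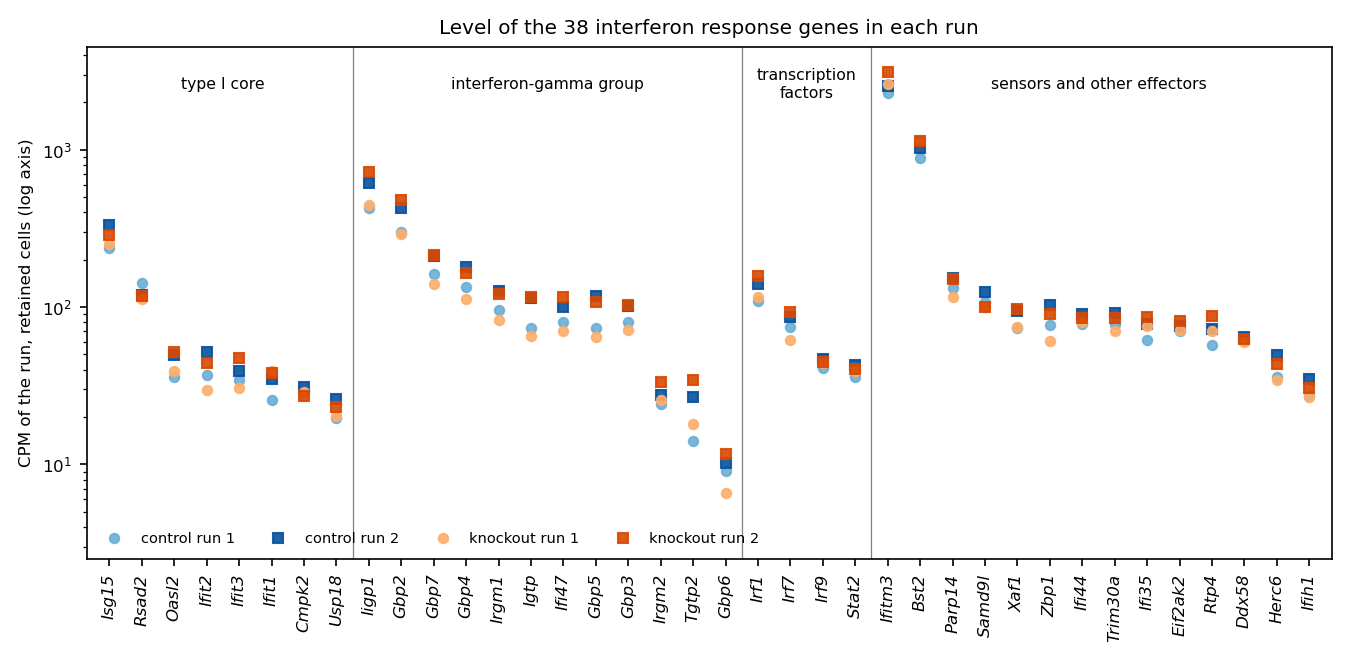
Level of each of the 38 members in CPM (log axis) in run 1 and run 2 of the control and of the knockout library, ordered by group. The 4 points of most members lie close together and the libraries overlap, with run 2 of each library above its run 1 for most genes of the interferon-gamma group.

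The type I core showed values of both libraries that mostly overlapped. Isg15, a ubiquitin-like protein that is attached to other proteins, was at 289 CPM in the control library (236 and 335 in its runs) and at 275 CPM in the knockout library (251 and 288), a ratio of 0.953 (0.927 to 0.980). Usp18, the protease that removes Isg15 and restrains the type I receptor, measured 23.2 CPM in control cells, with 19.7 in run 1 and 26.2 in run 2, and 22.2 CPM in knockout cells, with 20.4 and 23.2, so the ratio was 0.959 (0.870 to 1.06). Isg15 was highest in run 2 of the control. The Ifit genes encode proteins that bind viral RNA, and they lie side by side on chromosome 19. For Ifit1 the control runs gave 25.8 and 34.8 CPM (30.6 together) and the knockout runs 39.3 and 38.2 CPM (38.6 together), which is a ratio of 1.26 (1.16 to 1.37). Both knockout runs lay above both control runs for it. Ifit2 was at 45.02 CPM in the control library (37.3 and 51.8 in its runs) and at 39.2 CPM in the knockout library (29.8 and 44.5), a ratio of 0.871 (0.811 to 0.936). Ifit3 measured 37.1 CPM in control cells, with 34.4 in run 1 and 39.5 in run 2, and 41.2 CPM in knockout cells, with 30.5 and 47.1, so the ratio was 1.11 (1.03 to 1.198). For Ifit3 and Ifit2 the lowest of the 4 values was run 1 of the knockout library. Reads of Ifit3 may be split with its near-identical neighbour Ifit3b, so its level is uncertain. Without the cluster led by interferon genes, which held 13 control and 119 knockout cells, Ifit2 met the rule as lower, with a log2 ratio of −0.63.

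Rsad2 and Cmpk2 are neighbours on chromosome 12, where Rsad2 spans 26442746 to 26456452 and Cmpk2 26469204 to 26479837 in the GENCODE vM21 annotation of GRCm38. For Rsad2, viperin, an enzyme that makes an antiviral nucleotide analogue, the control runs gave 141 and 119.9 CPM (129.9 together) and the knockout runs 113 and 118 CPM (116 together), which is a ratio of 0.894 (0.858 to 0.933). Cmpk2, a mitochondrial nucleotide kinase, was at 30.4 CPM in the control library (29.5 and 31.1 in its runs) and at 27.6 CPM in the knockout library (28.7 and 27.0), a ratio of 0.910 (0.835 to 0.992). In both genes the knockout runs lay below the control runs, by small margins. Oasl2, a member of the oligoadenylate synthetase family, measured 43.2 CPM in control cells, with 35.9 in run 1 and 49.6 in run 2, and 47.3 CPM in knockout cells, with 39.3 and 51.7, so the ratio was 1.09 (1.02 to 1.17). Its runs overlapped. It met the rule as higher with each cell thinned to 2000 UMIs, with a log2 ratio of 0.59.

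In the interferon-gamma group all 11 genes with enough counts had overlapping runs, and 8 of the 11 had a ratio above 1. Among the guanylate-binding proteins, GTPases that gather on the membranes around intracellular microbes, Gbp2 was the most abundant. For Gbp2 the control runs gave 300.3 and 426 CPM (367 together) and the knockout runs 290.0 and 478 CPM (411 together), which is a ratio of 1.12 (1.09 to 1.15). Gbp3 was at 91.3 CPM in the control library (80.0 and 101 in its runs) and at 92.0 CPM in the knockout library (71.9 and 103), a ratio of 1.01 (0.961 to 1.06). Gbp5, a GTPase also known for promoting inflammasome assembly, measured 97.1 CPM in control cells, with 74.1 in run 1 and 117 in run 2, and 92.3 CPM in knockout cells, with 64.5 and 108, so the ratio was 0.950 (0.906 to 0.997). In these 3 genes run 2 was the higher run in both libraries. For Gbp7 the control runs gave 162 and 212 CPM (189 together) and the knockout runs 140.5 and 216 CPM (189 together), which is a ratio of 1.002 (0.968 to 1.04). Gbp4 was at 157 CPM in the control library (133 and 179 in its runs) and at 146 CPM in the knockout library (112 and 166), a ratio of 0.930 (0.896 to 0.966). Gbp4 and Gbp7 followed the same order of runs. Gbp6, under the minimum of 20 CPM, had 9.74 CPM in control cells (9.13 and 10.3 by run) and 9.81 CPM in knockout cells (6.62 and 11.6). Gbp2, Gbp3, Gbp5 and Gbp7 lie together on chromosome 3, and Gbp4 and Gbp6 on chromosome 5. Members of this family resemble one another in sequence, so reads may be split between them.

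The immunity-related GTPases act on the vacuoles of intracellular pathogens, and Irgm1, Irgm2 and Igtp regulate the other members. Irgm1 measured 113 CPM in control cells, with 96.1 in run 1 and 127 in run 2, and 108 CPM in knockout cells, with 82.4 and 122, so the ratio was 0.958 (0.916 to 1.001). For Irgm2 the control runs gave 24.1 and 27.7 CPM (25.98 together) and the knockout runs 25.6 and 33.2 CPM (30.5 together), which is a ratio of 1.17 (1.07 to 1.28). Igtp was at 94.9 CPM in the control library (73.4 and 114 in its runs) and at 98.2 CPM in the knockout library (66.0 and 116), a ratio of 1.04 (0.987 to 1.09). Irgm2's annotated span on chromosome 11, 58199618 to 58222782, overlaps that of Igtp, 58199556 to 58207591, so reads of this pair may not be separable. Iigp1, an effector GTPase of the family, measured 527 CPM in control cells, with 426 in run 1 and 615 in run 2, and 621 CPM in knockout cells, with 446 and 718, so the ratio was 1.18 (1.16 to 1.202). It was the most abundant member of the interferon-gamma group as counted by 3′ UMIs, which are not scaled by gene length. For Ifi47, another effector GTPase, the control runs gave 80.7 and 101 CPM (91.4 together) and the knockout runs 70.5 and 115 CPM (99.3 together), which is a ratio of 1.09 (1.04 to 1.14). Tgtp2, an effector GTPase with a near-identical copy, Tgtp1, was at 20.9 CPM in the control library (14.2 and 26.8 in its runs) and at 28.6 CPM in the knockout library (18.1 and 34.4), a ratio of 1.37 (1.24 to 1.51). Tgtp2 had the highest ratio of the members, yet run 2 of the control lay above run 1 of the knockout library. The copy Tgtp1 had a ratio of 1.47, and reads may be split between them.

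The 4 transcription factors had ratios between 1.004 and 1.14, all with overlapping runs. Irf1, a factor that interferon-gamma induces directly, measured 126 CPM in control cells, with 109 in run 1 and 141 in run 2, and 143 CPM in knockout cells, with 115 and 159, so the ratio was 1.14 (1.09 to 1.18). For Irf7, the factor that amplifies type I interferon production, the control runs gave 75.2 and 87.1 CPM (81.6 together) and the knockout runs 61.9 and 92.9 CPM (81.9 together), which is a ratio of 1.004 (0.954 to 1.06). Run 1 of the knockout library was the lowest of the 4 runs for Irf7. Irf9, the DNA-binding subunit of the type I complex, was at 44.0 CPM in the control library (41.1 and 46.6 in its runs) and at 44.6 CPM in the knockout library (43.9 and 45.05), a ratio of 1.01 (0.945 to 1.09). Stat2, the signal transducer of the same complex, measured 39.7 CPM in control cells, with 36.1 in run 1 and 42.8 in run 2, and 40.0 CPM in knockout cells, with 39.4 and 40.2, so the ratio was 1.01 (0.936 to 1.09). Irf9 and Stat2 varied little among the 4 runs.

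Among the sensors, Ifih1 (MDA5) and Ddx58 (RIG-I) detect viral RNA in the cytoplasm. For Ifih1 the control runs gave 27.1 and 35.0 CPM (31.3 together) and the knockout runs 26.8 and 30.6 CPM (29.2 together), which is a ratio of 0.934 (0.858 to 1.02). Ddx58 was at 62.8 CPM in the control library (61.4 and 64.1 in its runs) and at 61.7 CPM in the knockout library (60.4 and 62.5), a ratio of 0.982 (0.926 to 1.04). Both had overlapping runs. Zbp1, a sensor of left-handed nucleic acid that can start cell death, measured 91.0 CPM in control cells, with 76.7 in run 1 and 104 in run 2, and 79.7 CPM in knockout cells, with 61.1 and 90.04, so the ratio was 0.876 (0.833 to 0.921). For Eif2ak2, PKR, a kinase that stops translation when it binds double-stranded RNA, the control runs gave 70.2 and 76.1 CPM (73.3 together) and the knockout runs 71.7 and 82.2 CPM (78.4 together), which is a ratio of 1.07 (1.01 to 1.13). For Zbp1 run 1 of the knockout library was lowest. Trim30a, a ubiquitin ligase of the TRIM family, was at 85.4 CPM in the control library (78.5 and 91.5 in its runs) and at 79.9 CPM in the knockout library (70.3 and 85.2), a ratio of 0.935 (0.889 to 0.984). Herc6, the main ligase for Isg15 in mice, measured 43.4 CPM in control cells, with 36.0 in run 1 and 49.9 in run 2, and 40.4 CPM in knockout cells, with 34.5 and 43.7, so the ratio was 0.932 (0.868 to 1.002). For Parp14, an ADP-ribosyltransferase, the control runs gave 132 and 153 CPM (144 together) and the knockout runs 116 and 152 CPM (139 together), which is a ratio of 0.968 (0.931 to 1.01). For each of these 3 the knockout library was slightly lower and its runs overlapped those of the control.

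Of the remaining effectors, Ifitm3 was the most abundant member by 3′ UMIs. Ifitm3, a membrane protein that blocks the entry of viruses, was at 2428 CPM in the control library (2292 and 2547 in its runs) and at 2939 CPM in the knockout library (2616 and 3118), a ratio of 1.21 (1.199 to 1.22). Bst2, tetherin, which holds budding virions at the cell surface, measured 960.0 CPM in control cells, with 892 in run 1 and 1020.0 in run 2, and 1142 CPM in knockout cells, with 1160.4 and 1132, so the ratio was 1.19 (1.17 to 1.21). For both, the 2 knockout runs lay above the 2 control runs. For Samd9l, a cytoplasmic antiviral protein, the control runs gave 108 and 125 CPM (117 together) and the knockout runs 99.8 and 101 CPM (100.2 together), which is a ratio of 0.855 (0.818 to 0.893). Here both knockout runs lay below both control runs. Rtp4, an interferon-induced transporter-like protein, was at 65.3 CPM in the control library (57.4 and 72.2 in its runs) and at 81.6 CPM in the knockout library (70.3 and 87.9), a ratio of 1.2496 (1.18 to 1.32). Ifi35, a cytoplasmic protein induced by both interferon types, measured 70.3 CPM in control cells, with 61.6 in run 1 and 77.9 in run 2, and 82.9 CPM in knockout cells, with 75.7 and 86.9, so the ratio was 1.18 (1.12 to 1.245). The values of Rtp4 and Ifi35 overlapped between the libraries, with the lowest in run 1 of the control. For Xaf1, a protein linked to cell death, the control runs gave 73.6 and 94.4 CPM (84.7 together) and the knockout runs 74.7 and 97.1 CPM (89.1 together), which is a ratio of 1.05 (1.001 to 1.11). Ifi44, an interferon-induced cytoplasmic protein, was at 84.5 CPM in the control library (78.0 and 90.1 in its runs) and at 84.0 CPM in the knockout library (81.0 and 85.7), a ratio of 0.995 (0.946 to 1.05). Both had nearly equal levels in the libraries.

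Over all 37 members, the runs did not overlap in 6: Ifit1, Bst2 and Ifitm3 had both knockout runs above both control runs (3 of 37, against 27.5% of all genes), and Rsad2, Cmpk2 and Samd9l had both below (3 of 37, against 37.5%). Most genes with enough counts thus had runs that did not overlap between the libraries, and most interferon genes had runs that did.

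The genes around the members in the pathway were described from a list of 88, of which 76 were in the tables and 51 had enough counts. Of the ligands, 3 of the 9 listed were in the tables and their transcripts were nearly absent from the retained cells. Ifnb1, interferon-beta, had 0 UMIs in both libraries, which allows up to 0.110 CPM in control and 0.0576 CPM in knockout cells. Ifng, interferon-gamma itself, had 0 and 3 UMIs, and Ifne, interferon-epsilon, had 6 and 8. The receptors were expressed. Ifnar1 stood at 88.4 and 71.9 CPM in the control and knockout library and Ifnar2 at 77.0 and 81.2 CPM. The chains for interferon-gamma, Ifngr1 and Ifngr2, stood at 129 and 158 CPM and at 119.7 and 101 CPM. Il10rb, a chain shared by the receptors of type III interferon and interleukin-10, had 78.4 and 64.8 CPM, and Ifnlr1, the other type III chain, had 1 and 0 UMIs. 0 of the 5 receptors with enough counts met the size rule, beside the 2.74% of all genes that were higher and 5.45% that were lower.

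Of the kinases and STATs, 0 of 4 with enough counts met it. Jak1 was at 281 and 262 CPM and Jak2 at 72.5 and 88.8 CPM. Among the feedback inhibitors 1 of 5 was higher: Socs3, an inhibitor of Jak signalling that many cytokines induce, was at 136 and 173 CPM in the control runs and 252 and 244 CPM in the knockout runs, a ratio of 1.58 (1.53 to 1.64). Socs1, the inhibitor most tied to interferon, was at 13.5 and 14.99 CPM. Of the 31 other induced genes with enough counts 0 were higher and 4 lower, and of the 6 nucleic acid sensing genes 0 were higher and 1 lower, beside the same 2.74% and 5.45% of all genes. Next to Socs3 the highest ratios among genes of the list with a mean of at least 20 CPM were those of Tgtp1 (1.47), the chemokine Cxcl10 (1.42), Ube2l6 (1.28), the conjugating enzyme for Isg15, and Ifitm2 (1.27). Under that minimum Ifi27l2a had 8.64 and 25.9 CPM, a ratio of 2.998 with both knockout runs above both control runs, Mb21d1, which encodes the DNA sensor cGAS, a ratio of 1.48, and Ikbke, at 11 and 44 UMIs, a ratio of 2.09.

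Of the genes of the list with a mean of at least 20 CPM, 5 were lower in the knockout library, led by Cd74, the invariant chain of class II antigen presentation. It stood at 379 and 414 CPM in the control runs and at 39.0 and 139 CPM in the knockout runs and was 3.84-fold lower. Isg20, an exonuclease of viral RNA, was 1.70-fold lower. Irf8, a transcription factor induced by interferon-gamma, was 1.60-fold lower and Tlr3, a receptor of double-stranded RNA, 1.59-fold. Ifi203, a protein of the family of nuclear DNA-binding proteins p200, was 1.504-fold lower. For each of the 5 both knockout runs lay below both control runs. Under that minimum Ido1, an enzyme of tryptophan breakdown, had 27.9 and 5.09 CPM and was 5.48-fold lower, and Ciita, the activator of class II genes, had 6.10 and 2.61 CPM and was 2.34-fold lower, both with the knockout runs below the control runs. Cd74 was among the leading genes of cluster 7, which held 197 control and 35 knockout cells, and the part of cell makeup in the difference was not tested.

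More members differed between the runs of a library than between the libraries, and most of these were genes of the interferon-gamma group. The library ratio pools 2 runs on each side, while the run ratio sets single runs against each other. For single runs, knockout over control, the median log2 ratio of that group was −0.15 between the runs 1 and 0.030 between the runs 2. It was −0.56 for knockout run 1 over control run 2 and 0.51 for knockout run 2 over control run 1. In the knockout library the interferon-gamma group summed to 1395 CPM in run 1 and 2221 CPM in run 2, and in the control library to 1473 and 2056 CPM. By the same size rule 9 of 37 members were higher in run 2 of the knockout library and 0 lower, where 0.915% of all genes were higher and 0.224% lower. In the control library 3 of 37 were higher in run 2 and 0 lower, where 0.392% of all genes were higher and 0.512% lower. The median log2 ratio of run 2 over run 1 in the interferon-gamma group was 0.69 in the knockout and 0.42 in the control library, with all 11 genes above 1 in both. In the type I core it was 0.19 and 0.42, and over all genes −0.0077 and 0.00064.

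Of the 9 members higher in run 2 of the knockout library, 7 were of the interferon-gamma group. Tgtp2 had a ratio of run 2 over run 1 of 1.90 (1.68 to 2.15) in the knockout and 1.89 (1.58 to 2.27) in the control library. Igtp had 1.76 (1.65 to 1.88) and 1.55 (1.43 to 1.68), and Gbp5 had 1.67 (1.56 to 1.78) and 1.58 (1.46 to 1.72). These 3 were the members that met the rule in both libraries. The other 4 of the group were Gbp2 with 1.65 (1.60 to 1.70), Ifi47 with 1.63 (1.53 to 1.74), Iigp1 with 1.61 (1.57 to 1.65) and Gbp7 with 1.54 (1.47 to 1.61). Ifit3 of the type I core with 1.55 (1.40 to 1.70) and Irf7 with 1.501 (1.40 to 1.61) made up the 9. On the pathway list, 6 genes met the rule in run 2 of the knockout library, among them the chemokine Cxcl9 with 2.13, the chemokine Cxcl10 with 1.79, Cd74 with 3.58 and Cd274, which encodes the checkpoint ligand PD-L1, with 1.81. The other two were Ifi27l2a and Tgtp1. In the control library 1 gene of the list met it, Ido1, with 1.83. In all, 53 genes were higher in run 2 of the knockout library, 9 of them members, 6 on the pathway list and 38 on neither.

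**Figure D2:**
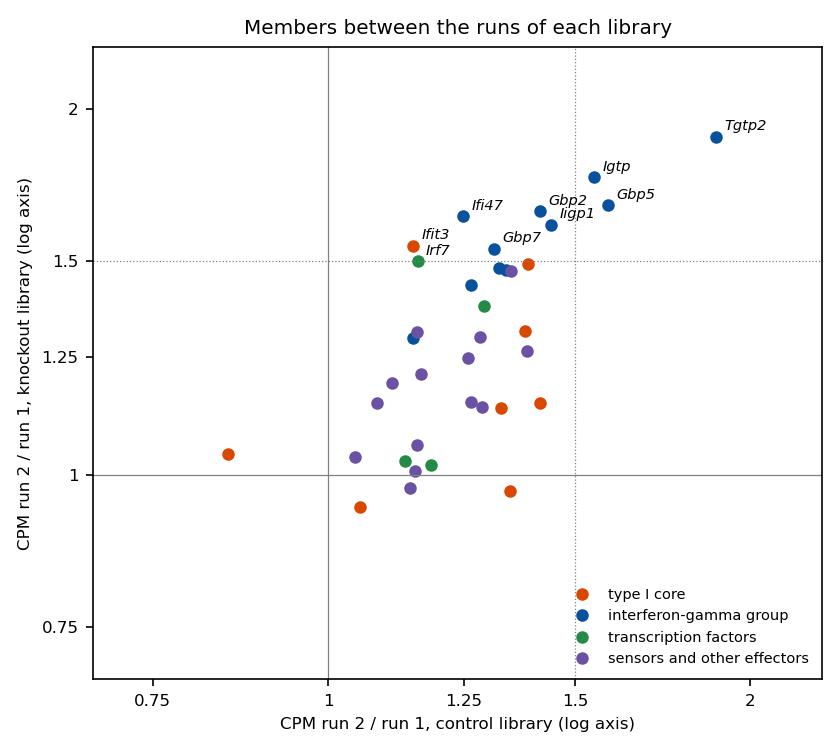
Ratio of run 2 over run 1 in the control library against that in the knockout library (log axes), for each member with enough counts, by group. Lines mark a ratio of 1 and the threshold of the size rule. The interferon-gamma group lies above 1 throughout, and its 7 called genes in the knockout library and 3 in the control library stand past the threshold.

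The same direction was seen within clusters of cells. In each of the 9 combinations of a library and a cluster with at least 50 cells in both runs, the median log2 ratio of the interferon-gamma group was above 0, from 0.33 to 1.26. It was highest in cluster 5 of the knockout library, led by histone and mitosis genes, at 1.26 with 11 of 11 genes higher in run 2 (2.18% of all genes), and in cluster 6, led by Sult1a1, Tagln and Cd36, at 1.08 with 10 of 11 (2.97% of all genes). In cluster 7 of the control library 7 of 8 genes of the type I core were higher in run 2 (2.71% of all genes), with a median of 1.09. The type I core ranged from −0.14 to 1.17 over the 9, with 1 of them below 0, cluster 1 of the knockout library. Depth differed between the runs too, with medians of 15132 and 18744 UMIs per retained cell in the knockout and 14286 and 21505 in the control library. Neutrophil markers summed to 45.04 and 83.7 CPM in runs 1 and 2 of the knockout library, and those of T or natural killer cells to 1.78 and 1.01 CPM. In the control runs they summed to 58.6 and 51.8 CPM and to 1.10 and 1.52 CPM. Erythroid markers summed to 4.30 and 33.4 CPM in the knockout runs and to 85.4 and 22.5 CPM in the control runs. These 3 lists moved in opposite directions between the runs of the 2 libraries. Macrophage markers summed to 48.9 and 53.9 CPM in the control runs and to 66.1 and 67.2 CPM in the knockout runs. That list was higher in run 2 of both libraries. The part of depth and of these cells in the difference was not tested. The control count of 3 became 6 with the same cluster weights in both runs. That setting used only clusters with at least 50 cells in both runs and had no interval, so the 6 rests on ratio and level alone. It stands without the share of all genes at that setting and is not read as a result about the members.

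Across clusters of retained cells the members covered a wider span than between libraries. Clusters were made without the members and the pathway list among the variable genes. Genes on neither list that were higher in type I high cells, such as Ubd and Ifit3b, were not left out. The clusters are therefore not independent of the response. Cluster 11 was led by Cxcl10, Ubd, Cxcl9, Cd274, Gbp2 and Gbp5, with Ifit3, Rsad2 and Ifit2 further down. Its 119 knockout cells had 2566 CPM of the type I core and 8029.6 CPM of the interferon-gamma group, and its 13 control cells 2814 and 7486 CPM. Cluster 7, led by Nts and the class II genes Cd74, H2-Eb1 and H2-Aa beside the arterial genes Hey1, Gja4 and Efnb2, came next. Its 197 control cells had 1244 and 4087 CPM, and its 35 knockout cells 1245 and 5209 CPM. Leading genes were ranked after the clustering from the same cells, so these levels describe the clusters and test nothing.

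Cluster 4, led by the hypoxia-response genes Vegfa, Ero1l, Bnip3 and Egln3, had the lowest level of the interferon-gamma group, 474 CPM in 119 control cells and 517 CPM in 280 knockout cells, with 338 and 417 CPM of the type I core. The proportion of the groups differed between clusters. The interferon-gamma group was 1.40 and 1.24 times the type I core in cluster 4 but 7.87 and 4.98 times in cluster 9, which was led by the venular genes Ackr1, Selp and Sele and held 48 control and 144 knockout cells. By run the factor was 1.04 and 2.89 in the control runs and 1.06 and 1.31 in the knockout runs for cluster 4, where the type I core stood at 522 and 138 CPM in the control runs, and 14.0 and 6.53 in the control runs and 3.52 and 5.84 in the knockout runs for cluster 9, so leaving out 1 control run moves it by more than 1.5 times in either cluster. In clusters 3 and 5 the factor was 3.47 and 3.98 in the control and 3.96 and 4.37 in the knockout library. Cluster 14, led by the leukocyte genes Lyz2, Tyrobp and Ptprc and holding 51 control cells and 1 knockout cell, had 213 and 623 CPM in its control cells, under the levels of clusters 7, 9, 10 and 11.

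**Figure D3:**
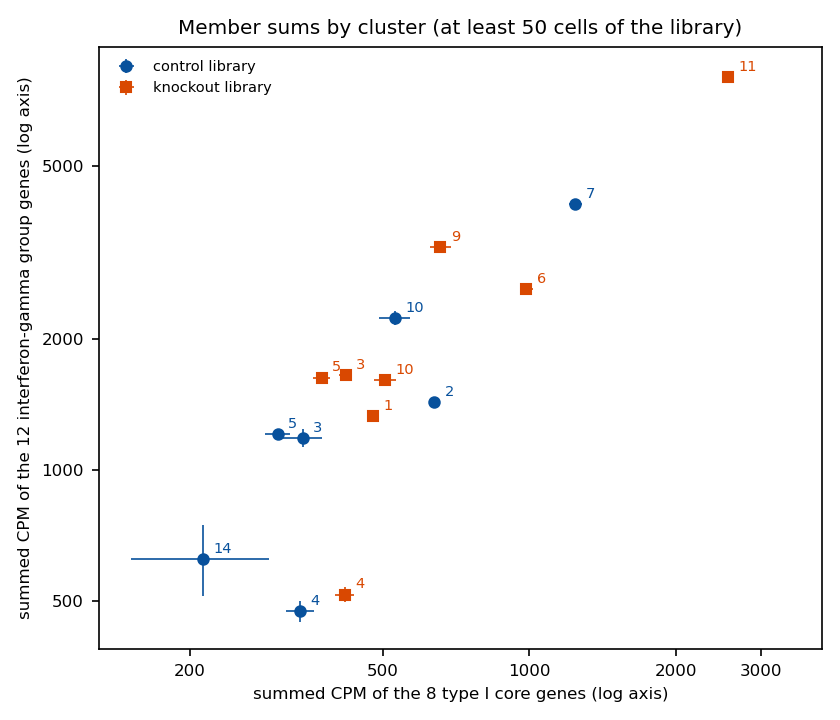
Summed level of the type I core and of the interferon-gamma group in CPM (log axes) in each kept cluster with at least 50 cells of the library. Cluster 7 stands highest in both sums among the control clusters drawn, and cluster 11 among the knockout clusters drawn. Cluster 4 is low in the interferon-gamma group.

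In the 4 clusters with at least 50 cells in both libraries the members could be compared within a cluster. In cluster 3, 2 of 33 members were higher in the knockout library and 0 lower, where 2.57% of all genes were higher and 4.22% lower. In cluster 4 the count was 4 of 30 (3.96% of all genes), with 0 lower (8.97%). In cluster 5 it was 5 of 32 (2.86%), 4 of them in the interferon-gamma group, and 0 were lower (4.73%). In cluster 10, led by mitosis genes, 0 of 36 were higher (3.85%) and 3 lower, 8.33% beside 9.01% of all genes. The median log2 ratio of the members in these clusters was 0.27, 0.25, 0.30 and −0.33, and that of all genes −0.047, −0.064, −0.033 and −0.054.

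The response was next described cell by cell. Each retained cell with at least 5000 UMIs was thinned to 5000, which kept 1236 control and 2636 knockout cells and left out 145 and 97. The summed UMIs of the 8 type I core genes gave each cell a type I index, and those of the 12 genes of the interferon-gamma group a gamma index. A cell was called high at 8 UMIs or more of the type I index or 29 or more of the gamma index, the smallest whole numbers that at most 10% of all these cells reach, and low at 0 UMIs. An index is a continuous range and the class is not a cell type. Of the 3872 cells, 67 lay 1 UMI below the type I limit and 51 at it, and 15 and 14 did so for the gamma index.

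The libraries held nearly equal shares of high cells. Type I high cells were 9.79% (8.19 to 11.6) of the control and 10.0% (8.90 to 11.2) of the knockout cells, and gamma high cells 9.79% (8.19 to 11.6) and 9.75% (8.64 to 10.9). The runs differed more. The type I share was 7.74% and 12.03% in runs 1 and 2 of the control and 8.33% and 11.2% in those of the knockout library. The gamma share was 8.51% and 11.2% in the control runs and 5.46% and 12.7% in the knockout runs, the last pair having intervals that do not overlap (4.18 to 6.99 and 11.1 to 14.5). The knockout minus control difference in the gamma share was therefore −4.33 percentage points without run 2 of the knockout library and 2.94 without run 1. For the type I share it was −2.02 points without run 1 of the control library and 2.28 without run 2. Low cells, with 0 UMIs of an index, made up 37.6% and 36.9% for the type I index and 14.0% and 13.9% for the gamma index.

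The type I index was spread unevenly over cells. Its median was 1 UMI in both libraries, while the highest cell of each run had 116, 104, 83 and 201 UMIs. At 32 UMIs or more the share of cells was 1.24% and 1.53% in the control runs and 1.57% and 1.29% in the knockout runs. The gamma index was present in more cells, with 8 UMIs or more in 27.4% and 39.5% of the control and 25.4% and 42.1% of the knockout cells. High cells were found in every kept cluster with more than 20 cells of a library in this set. In cluster 11, 53.8% of the 117 knockout cells were type I high and 78.6% gamma high, and they were 23.9% and 35.8% of all high knockout cells. In the control library cluster 7 held 30.6% and 43.0% of the high cells and cluster 2 47.1% and 33.9%.

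**Figure D4:**
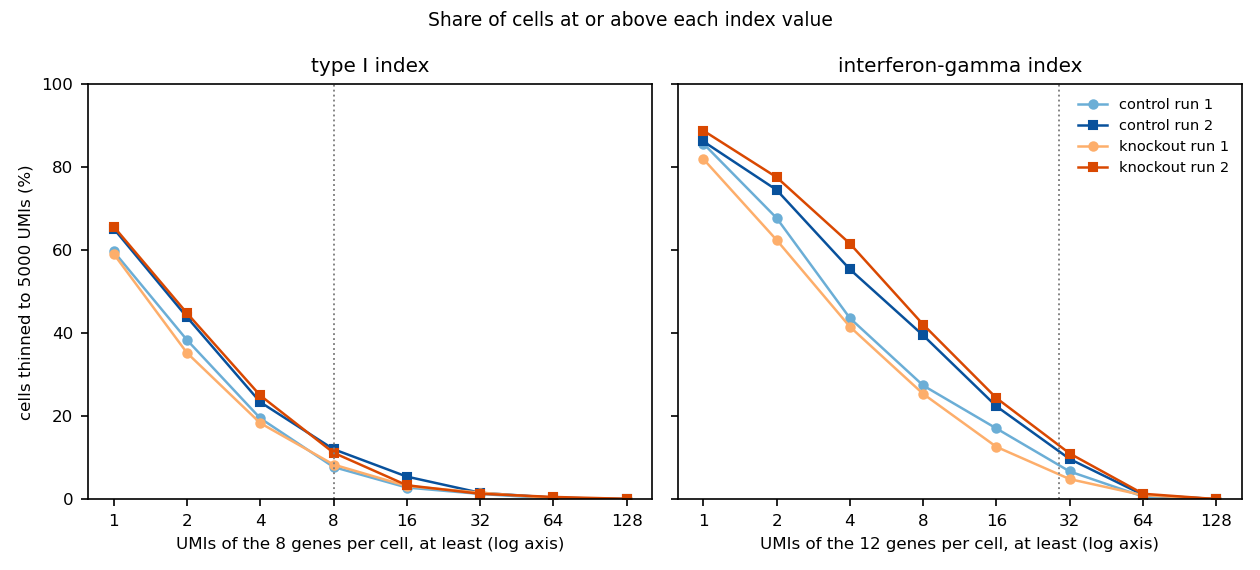
Share of cells (percent) at or above each number of UMIs (log axis) of the type I index and of the gamma index, for the 4 runs, with the limit for high cells drawn. Run 2 lies above run 1 in both libraries over most of the range, and the curves of the 2 libraries cross.

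Type I high and gamma high cells overlapped in part. In the control library 58 cells were both, 47.9% of the type I high and 47.9% of the gamma high cells, and in the knockout library 101 cells, 38.3% and 39.3%. Among all cells of these libraries the gamma high share was 9.79% and 9.75%. Across the cells of a run the indices had a Pearson correlation of 0.52 to 0.63 and a Spearman correlation of 0.47 to 0.61, over 590 to 1556 cells that share a library and 1 thinned depth. These are given as a description.

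Members that were no part of an index showed whether high cells carried the rest of the response. Enough counts here means a mean of at least 20 CPM over the high and low cells, for members and for all genes. A gene can therefore pass through its level in the high cells. For the type I index Tgtp2, Irgm2, Ifih1 and Herc6 passed in this way, with 7.76 to 17.8 CPM in low cells. Of the 29 members outside the type I index with enough counts, 28 were higher in type I high than in type I low cells in each of the 4 runs (ratio of at least 1.5, interval above 1), where 2.45% of all genes were. 0 of 29 were lower in each run, where 0.139% of all genes were. All 11 genes of the interferon-gamma group with enough counts were among them, as were 14 of 14 sensors and other effectors and 3 of 4 transcription factors. Gbp5, at 348 CPM of the thinned UMIs in high and 28.1 CPM in low cells (means of the 4 runs), had the highest ratio of that group, 12.4. Igtp had 314 and 30.4 CPM, and Iigp1 1534 and 231 CPM. Among the sensors and effectors, Herc6 had 170.4 against 17.8 CPM, Zbp1 258 against 30.3 CPM and Ifi44 298 against 36.1 CPM. The smallest ratios there were those of the abundant genes Ifitm3 (2.002) and Bst2 (2.17). Irf7 had 264 against 32.1 CPM, a ratio of 8.21, and Irf9, the member that missed the rule, 65.4 against 36.9 CPM, with ratios of 1.30 to 2.16 over the runs. The median ratio of the 29 was 5.601, and that of all genes 0.947.

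In gamma high against gamma low cells, 25 of the 26 members outside the gamma index were higher in each of the 4 runs, and 0 lower, where 3.39% of all genes were higher and 0.886% lower, with a median ratio of 6.44 (0.968 over all genes). All 8 genes of the type I core were higher. Rsad2 had 544 CPM in high and 14.0 CPM in low cells, Isg15 864 and 58.3 CPM, and Cmpk2 131 and 7.61 CPM. Ifit1, Ifit2 and Ifit3 stood at 179, 251 and 194 CPM in high cells and had 0 UMIs in the 81 low cells of run 2 of the control library, which allows up to 7.41 CPM there. Zbp1 had 256 against 11.9 CPM and Parp14 462 against 49.2 CPM. Irf1 had 378 against 60.9 CPM, a ratio of 6.21 where it was 2.90 between the type I classes. Irf9 again missed the rule, with 61.0 against 31.3 CPM. The inhibitor Socs1 stood at 52.7 against 5.99 CPM between the type I classes and at 61.3 against 2.47 CPM between the gamma classes.

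**Figure D5:**
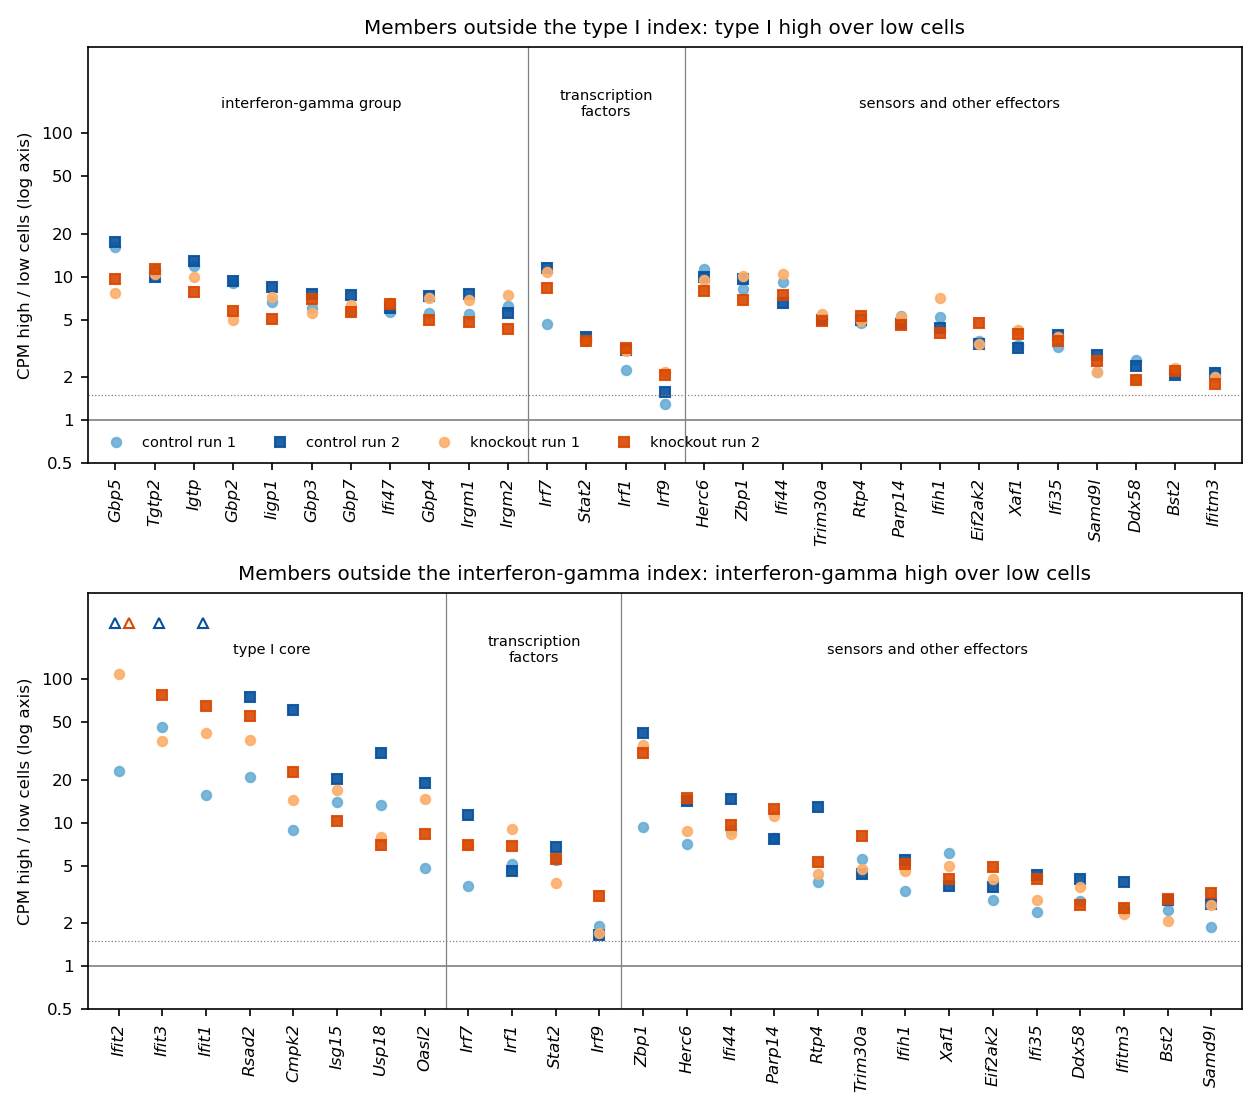
Ratio of high over low cells (log axis) for each member outside the index, 1 point per run, for the type I index and for the gamma index. Open triangles at the top edge mark runs in which the low cells had 0 UMIs of the gene. All but Irf9 meet the size rule in all 4 runs among members with a mean of at least 20 CPM over high and low cells.

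In each run high cells had a lower median depth before thinning than low cells: 14628 to 21315 UMIs in type I high and 16098 to 22351 in type I low cells, and 14841 to 20981 and 16483 to 25498 in the gamma classes. Endothelial markers summed to 6321 to 8664 CPM in type I high and 6808 to 8908 CPM in type I low cells. Macrophage markers summed to 20 to 73.2 and 51.5 to 94.2 CPM, and between the gamma classes to 54.5 to 105 and 45.7 to 66.7 CPM. When cells with any UMI of a leukocyte marker were left out, 827 of the 3872 cells remained, with 12 to 35 type I high and 10 to 28 gamma high cells per run. Then 18 of 29 and 12 of 26 members met the rule in every run, where 0.890% and 1.03% of all genes did, with median ratios of 5.47 and 7.54. UMIs from free RNA were not removed, and their part in these levels was not tested.

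Outside the members, the 15 genes with the highest ratio of type I high over low cells were Cxcl10, Ifit3b, Ubd, Oasl1, Gm4951, Cxcl9, Cd274, Ifi213, Ifi203, Serpina3f, Ifi211, Ifi207, Ifi204, Ifi206 and Apol9a. The ranking used the mean log2 ratio over the runs with a pseudocount, among genes with a mean of at least 20 CPM in the high cells. A gene could thus enter through the high cells alone. Ifit3b is near-identical to Ifit3, a gene of the type I index, so its place may follow from the choice of cells. Cxcl10 and Cxcl9, chemokines that draw T cells carrying Cxcr3, stood at 1542 against 44.4 CPM and 3618 against 503 CPM. Ubd, a ubiquitin-like modifier, stood at 1531 against 191 CPM and Cd274 at 120.0 against 8.32 CPM. Ifi203, Ifi204, Ifi206, Ifi207, Ifi211 and Ifi213 belong to 1 family of DNA-binding proteins among which reads may be split, and Ifi204 stood at 277 against 51.5 CPM.

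Cells that were high in 1 index only were set against each other, with 63 type I only and 63 gamma only cells in the control and 163 and 156 in the knockout library. Among the 18 members outside both indices 1, Irf1, was on the gamma side in each of the 4 runs, where 0.720% of all genes were, and 1, Ifi44, on the type I side, where 0.281% were. Irf1 had 131 CPM in type I only and 339 CPM in gamma only cells, a ratio of 2.58. Ifi44 had 285 CPM in type I only and 146 CPM in gamma only cells, which is 1.95-fold lower in the latter. Irf7 had 245 CPM in type I only and 120.0 CPM in gamma only cells but missed the rule in run 2 of the knockout library, where its ratio was 0.712. Of the 56 genes of the pathway list with enough counts, 7 were on the gamma side: the class II chain Cd74, the chemokine Cxcl9, Ido1, Cd274, Tgtp1, Irf8 and the peptide transporter Tap1. Tgtp1 may share reads with its near-identical copy Tgtp2, a gene of the gamma index. Its place on the gamma side may therefore follow from the choice of cells. Cxcl9 had 1399 CPM in type I only and 5753 CPM in gamma only cells, and Ido1 26.8 CPM in type I only and 106 CPM in gamma only cells. On the type I side were 3, Isg20, Oasl1 and Phf11d, of which Isg20 had 104 CPM in type I only and 10.0 CPM in gamma only cells. The other 16 members did not separate the 2 kinds of cell by this rule in every run. By direction alone, 10 of the 18 members were higher in type I only cells in every run, beside 589 of all 5693 genes. In gamma only cells 2 of the 18 were higher in every run, beside 771 of the 5693.

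The members also differed in how unevenly they were spread over cells, measured as the variance over the mean of their thinned UMI counts, which is 1 for counts scattered at random. The median over genes of the value (median of 4 runs) was 4.06 in the type I core, 2.39 in the interferon-gamma group, 1.57 among the transcription factors and 1.32 among the sensors and effectors, beside 1.07 over all genes. Rsad2 had the highest value, 9.93, followed by Gbp2 at 8.52, Iigp1 at 8.46 and Isg15 at 6.00. Irf9, at 1.07, and Stat2, at 1.12, were close to the value of all genes. The measure rises with the level of a gene, so abundant members such as Ifitm3 (5.47) are not comparable with rare ones. Each member was also ranked among genes within 1.5 times its mean level. The median percentile was 99.5 in the type I core, 96.7 in the interferon-gamma group, 89.2 among the transcription factors and 88.0 among the sensors and effectors. Rsad2 was at 99.8, Ifit1, Ifit2 and Ifit3 at 99.6, Isg15 at 98.8, Iigp1 at 98.4 and Gbp2 at 98.3. Stat2 was at 82.4 and Irf9 at 61.5.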

How the data were processed

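The members, the pathway list and the rules were chosen with earlier results of these data known. Cells were sorted and sequenced as 1 control and 1 knockout library. The submitters' processing notes name Cell Ranger 3.0.0 and Seurat 3.1.1, and mm10 as genome build, with no settings. The deposited values are natural log values, which the authors made from UMI counts: tested on the files, each is ln(1 + x), where x is the UMIs of a gene per 10000 UMIs of its cell. Whole counts were recovered for 100% of values within 0.01 UMI, and these took the place of the counts assumed at first. Cells passed with a minimum of 500 genes and 1000 UMIs and a mitochondrial share up to 10%, and the highest 5% by a doublet score after the method of Scrublet were removed in each library (129 control and 166 knockout cells).

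Clustering used 2000 variable genes, 30 principal components, 15 neighbours and Leiden communities (resolution 0.8), with members and pathway genes left out of the variable genes. Clusters were left out where the median depth was under 0.333 of that of their own library and none of the 10 leading genes was an endothelial marker, or where at least 2 more leading markers were of another cell type than endothelial. UMIs of the remaining cells were summed per library and run and given as CPM with exact Poisson intervals, ratios with exact conditional and shares of cells with exact Clopper-Pearson intervals, at 95%. An upper limit for 0 counts was set at 3 counts. Nothing was tested between conditions, and the size rule (1.5-fold, 20 CPM) is a description. Every member with at least 20 CPM is named. Of the pathway list the 5 highest and 5 lowest ratios, all ligands and all receptors are named, and of genes outside the members the 15 with the highest ratio in type I high cells. Other genes named were chosen after their values were seen, and 1 gene of the pathway list is not reported here. The steps were tested on simulated data. Gene positions are from GENCODE vM21 and promoters from RefSeq. Alternatives on cells, depth, runs, clusters and size rule were computed, and those on the runs' own difference, on the interferon-led cluster and on shallow kept clusters were chosen after seeing the data. Python 3.11.15, NumPy 2.4.6, SciPy 1.17.1, pandas 2.3.3, scikit-learn 1.9.0, igraph 0.11.9, leidenalg 0.10.2 and matplotlib 3.10.9 were used.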

Additional observations from a re-analysis of the deposited data

How the results depend on the processing

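No paired analysis was possible because each group has 1 library. The count of members past the size rule between the libraries, 0 of 37, became 1 without the interferon-led cluster (Ifit2), 1 thinned to 2000 UMIs (Oasl2), 1 without run 2 of the control library and 1 without run 1 of the knockout library (both Tgtp2), 2 without run 2 of the knockout library (Gbp5 and Ifit2) and 2 at a limit of 25% in place of 50% (Ifit1 and Tgtp2). The median log2 ratio of the type I core, −0.065, was −0.22 without the interferon-led cluster, 0.055 thinned, 0.20 without run 2 of the control, −0.19 without run 2 of the knockout library and 0.22 with the same cluster weights in both libraries. That of the interferon-gamma group, 0.050, was −0.15 without the interferon-led cluster, −0.14 and 0.32 without run 1 and run 2 of the control library, 0.29 and −0.40 without run 1 and run 2 of the knockout library and 0.23 with the same cluster weights. Equal weights between the libraries used only clusters 3, 4, 5 and 10, those with at least 50 cells in both libraries. All other retained cells were left out there, so that setting differs in cells as well as in weights. The count of members higher in run 2 of the control library, 3, was 6 with the same cluster weights in both runs, 21 at the limit of 25% and 0 at 100%, and that of the knockout library, 9, was 20 and 0. The 6 came from only the clusters with at least 50 cells in both runs, without the interval part of the rule. Counts at changed settings stand here without the share of all genes at that setting, so none is read as a result about the members. The difference in type I high cells, 0.226 percentage points, was −2.02 and 2.28 without run 1 and run 2 of the control library, and that in gamma high cells, −0.0400 points, was 2.94 and −4.33 without run 1 and run 2 of the knockout library. Members higher in high cells in all 4 runs fell from 28 to 18 for the type I index and from 25 to 12 for the gamma index without cells that held a leukocyte marker UMI, a set with fewer cells. The cause of the other changes was not tested. Thinned to 2000 UMIs, the numbers were 21 and 21. Leaving shallow clusters in, gating cells one by one, keeping doublets, clustering with the members and leaving out shallow kept clusters each left 0 members past the rule between the libraries. Depth limits Gbp6, Ifnb1, Ifng, Ifne and Ifnlr1, and the single library per group limits every comparison.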

Other observations

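Genes outside the lists, chosen after their values were seen, also differed between the runs of a library by the size rule. Fabp4, Cd36, Fabp5 and Pparg were higher in run 2 of the knockout library. Fabp4, a fatty acid carrier of capillary endothelium, had 1696 CPM in run 1 and 3257 CPM in run 2, and Cd36, a fatty acid translocase, had 161 CPM in run 1 and 323 CPM in run 2. Fabp5 had 361 CPM in run 1 and 645 CPM in run 2, and Pparg, the nuclear receptor that induces such genes in fat tissue, had 17.5 CPM in run 1 and 32.2 CPM in run 2. Cluster 6, which Cd36 leads with other genes, held 8.32% of the retained cells of run 1 and 15.9% of those of run 2 in that library. Nts, which encodes the peptide neurotensin, was higher in run 2 of the knockout library, with 7.26 CPM in run 1 and 52.4 CPM in run 2, and lower in run 2 of the control library, with 140.4 CPM in run 1 and 45.8 CPM in run 2. Wdfy1 went in opposite directions as well, with 30.1 CPM in run 1 and 57.5 CPM in run 2 in the knockout and 49.1 CPM in run 1 and 21.2 CPM in run 2 in the control library. Rpl29, a ribosomal protein, was lower in run 2 of both libraries, with 667 CPM in run 1 and 144 CPM in run 2 in the control and 598 CPM in run 1 and 302 CPM in run 2 in the knockout library. Cenpe and Cenpf, kinetochore genes of mitosis, were higher in run 2 of the control library, with 30.1 CPM in run 1 and 56.2 CPM in run 2 for Cenpe and 47.7 CPM in run 1 and 82.2 CPM in run 2 for Cenpf.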
